A study of Macaca fascicularis with 23 samples.

Results

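The genes described here are 10 members of the Wnt pathway, taken by exact gene name from the 8415 genes analysed in cynomolgus monkey (*Macaca fascicularis*, Cm) cells. They are the ligands WNT2, WNT2B, WNT3A, WNT4, WNT5A and WNT7A, the R-spondins RSPO1 and RSPO3, the receptor FZD1, and CTNNB1, the gene of beta-catenin. They were named with results of these same libraries known, so their differences between media are given as a description. A limma call of a member between media is part of that description and no support for a change. Of the 10, 7 passed the level used here for expression, log2(RPM + 1) above 4 in at least 1 of the 21 libraries of pluripotent stem cells (PSCs), where RPM is the reads of a gene scaled by the mapped reads of its library. WNT2, WNT7A and RSPO1 did not pass it. A gene can pass this level through the medium where it is highest alone, so counts over the 7 are no support for a change.

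Wnt ligands are secreted, lipid-modified proteins that bind Frizzled receptors on the same or neighbouring cells. In the canonical branch, ligand binding stops a complex that holds GSK-3β from marking beta-catenin for breakdown, and beta-catenin then enters the nucleus and works with TCF/LEF factors. R-spondins are secreted proteins that raise the sensitivity of a cell to Wnt by protecting its Frizzled receptors from removal. In pluripotent cells the pathway is known for its part in self-renewal and in the first steps towards mesoderm, and many naïve media contain a GSK-3β inhibitor.

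Expression was measured by SC3-seq, which amplifies cDNA from 1 ng of total RNA and reads only the 3′ ends of transcripts. RPM therefore does not grow with transcript length, and levels of different genes are compared below on that scale. The 21 PSC libraries came from 7 lines, each in 3 media. Of these, 3 were embryonic stem cell (ESC) lines (TRSK, CMK6, CMK9). The other 4 were induced PSC (iPSC) lines from 1 foetus: liver cells gave iPS-L6 and iPS-L3, and stomach cells gave iPS-S12 and iPS-S6. Episomal reprogramming vector was reported to persist in both liver-derived lines and in 1 stomach-derived line, which the study's text and a figure legend name differently. Primed cells grew in bFGF/KSR, a medium with basic fibroblast growth factor and serum replacement. Naïve-like cells carried PiggyBac transgenes for human KLF2 and NANOG, switched on by doxycycline (Dox), and grew in K5cLD, which holds LIF, Dox and the compounds kenpaullone, CHIR99021, forskolin, Gö6983 and SB590885. By the study's methods they also received a GFP and puromycin-resistance reporter vector that holds the transactivator for Dox, and were drug selected. Differentiated cells were the same transfected lines in K5c, the same medium without LIF and Dox. CHIR99021 and kenpaullone both inhibit GSK-3β, so the naïve-like and differentiated cells shared this part of their treatment, and the primed medium listed neither. All PSCs were grown without feeder cells on a laminin fragment. Liver and stomach cells of a foetus, 1 library each in somatic cell medium, completed the 23 libraries.

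The 21 PSC libraries and the 2 somatic libraries held 861000 to 7986000 reads, with a median of 3004000. The 8415 genes analysed held 24.8% to 27.5% of the RPM of each library. A gene called not measured has no value among them and may still be expressed. Shares of all expressed genes are shares within the 8415 only. A count of 3 reads, taken as the lowest level that can be read, was worth 0.376 to 3.49 RPM depending on the library, and 0 reads do not mean that a gene was absent. Primed iPS-S12 and naïve-like CMK6 stood farthest from the other libraries of their medium. Some of the results below, not all, are also given without them. The numbers that name the libraries run by medium, so an order of library preparation and the medium cannot be told apart. Of 8 measured pluripotency markers, the summed level was 972 to 2596 RPM in primed, 1911 to 2792 RPM in naïve-like and 1207 to 2294 RPM in differentiated cells, against 1.76 RPM in liver and 0.973 RPM in stomach cells. LIN28A and SOX2 made up most of that sum in differentiated cells, with medians of 1086 and 471 RPM. Other markers were lower there than in naïve-like cells: the median was 289 RPM in naïve-like and 20.2 RPM in differentiated cells for POU5F1, 104 and 0.999 RPM for CRIPTO, 156 and 29.3 RPM for DPPA4, and 123 and 27.0 RPM for L1TD1. POU5F1 stood at only 32.8 RPM in primed iPS-S12, beside 207 to 427 RPM in the other 6 primed lines. Fibroblast markers were poorly covered, with 2 of 12 measured (COL1A2 and PDGFRA). Their sum was 23.2 to 579.6 RPM in primed, 6.797 to 65.6 RPM in naïve-like and 8.50 to 261.0 RPM in differentiated cells, against 4854 RPM in liver and 4516 RPM in stomach cells. No gene sequences were used here.

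CTNNB1 was the most abundant of the 10 genes in every library except that of the stomach cells. Its level was 221 to 513 RPM (median 423) in primed cells, 173 to 603 RPM (median 356) in naïve-like cells and 409.8 to 801 RPM (median 535) in differentiated cells. WNT5A and FZD1 followed, with medians of 34.7 and 19.7 RPM in primed cells, and both had at least 3 reads in all 21 PSC libraries. The ligands WNT2B, WNT3A and WNT4 and the R-spondin RSPO3 lay lower, with primed medians of 8.69, 1.23, 8.14 and 0 RPM, and each was at 0 in at least 1 PSC library. The ranges of CTNNB1 and of the other 9 genes did not overlap in any medium, whereas genes next to each other in the rest of this order overlapped in primed cells.

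**Figure D1:**
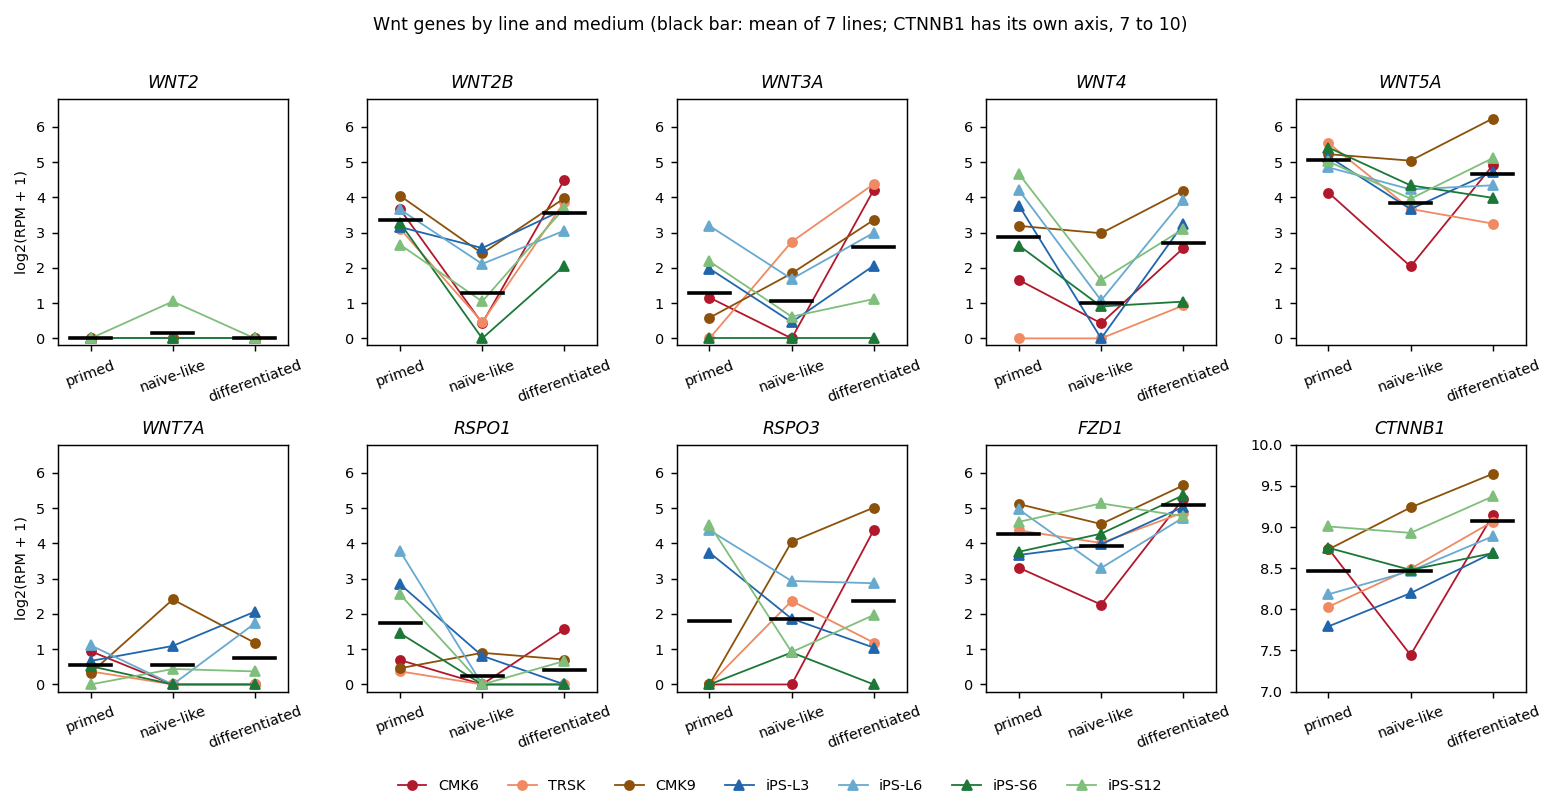
Level of each of the 10 genes, as log2(RPM + 1), in primed, naïve-like and differentiated cells of the 7 lines. Circles mark ESC lines, triangles mark iPSC lines, lines join the media of 1 cell line, and black bars are means of 7 lines. WNT2B is lower in naïve-like than in primed cells of all 7 lines, whereas the lines of RSPO3 cross.

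The comparison of naïve-like with primed cells asks what the conversion did to these genes. WNT2B and WNT5A were lower in naïve-like cells of all 7 lines, WNT4 was lower in 6 of 7, and CTNNB1 had the same mean in both. WNT2B was the member whose levels separated the media. Over all 2776 expressed genes, limma at a Benjamini-Hochberg adjusted p under 0.05 called 19.2% of genes in this comparison, with 8.18% of genes called lower in naïve-like cells, and 6.3% of genes were lower in all 7 lines. By the same rule 2 of the 7 expressed members, WNT2B and WNT5A, were called, both lower. With the cell line as a block WNT4 was called as well, which made 3. WNT4 was also called, lower, with quantile normalization, with library centring and without line TRSK or CMK9, and RSPO1, lower, without the filter. With the filter in at least 7 libraries only 3 members were tested. WNT2B was not among them, and WNT5A alone was called. The rule that named these genes used this comparison, so nothing is read from the counts.

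WNT2B, a ligand of the canonical branch, stood at 5.31 to 15.5 RPM (median 8.69) in primed cells and at 0 to 4.91 RPM (median 1.07) in naïve-like cells. No naïve-like library reached the lowest primed library, and WNT2B was the single member of the 7 whose 2 groups did not overlap. Over all expressed genes, 1.66% lay apart in the same direction. The mean difference of log2(RPM + 1) was -2.08 (SD 1.00 over 7 lines), from -3.28 in iPS-S6 to -0.60 in iPS-L3. In naïve-like CMK6 and TRSK cells WNT2B rested on 1 read each and in iPS-S6 on 0 reads, against 10 to 124 reads in the primed libraries. With 1 added to such low values the log2 difference understates the change, and with 0.1 added it became -3.10.

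WNT5A, a ligand best known for signalling outside the beta-catenin branch and for directed cell movements, stood at 16.6 to 45.6 RPM (median 34.7) in primed cells and at 3.12 to 31.95 RPM (median 14.6) in naïve-like cells. CMK6 was the lowest line in both media, and primed CMK6, at 16.6 RPM, lay below naïve-like iPS-L6, iPS-S6 and CMK9, so the ranges overlapped. CMK9 was nearly level, with 36.4 RPM primed and 31.95 RPM naïve-like. The mean difference was -1.20 (SD 0.68) on the log2 scale, from -2.10 in CMK6 to -0.18 in CMK9. The call of WNT5A was absent when any line other than CMK9 was left out, without the primed iPS-S12 library, without the naïve-like CMK6 library and without the filter. Its mean difference stayed between -1.37 and -0.90 when 1 line, or 1 of those 2 libraries, was left out. COL1A2 was highest in primed TRSK, at 579 RPM, where WNT5A also had its highest primed level. It was lowest in primed iPS-S6, at 21.7 RPM, where WNT5A was second highest. PDGFRA, the other measured fibroblast marker, went the other way, with 0.588 RPM in primed TRSK and 6.08 RPM in primed iPS-S6. The part of such cells in these levels of WNT5A was not tested.

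WNT4, a ligand known from kidney and ovary development, stood at 0 to 24.4 RPM (median 8.14) in primed cells and at 0 to 6.91 RPM (median 0.876) in naïve-like cells. TRSK had 0 reads in both media and CMK9 was nearly level, with 8.14 and 6.91 RPM, whereas the 4 iPSC lines ran from 5.21 to 24.4 RPM in primed cells and from 0 to 2.14 RPM in naïve-like cells. The mean difference was -1.87 (SD 1.48), and 4 of the 7 naïve-like libraries lay below 3 reads.

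FZD1, a Frizzled receptor, stood at 8.92 to 33.7 RPM (median 19.7) in primed cells and at 3.81 to 34.2 RPM (median 15.2) in naïve-like cells. It was lower in 4 lines and higher in 3, and the mean difference of -0.33 (SD 0.83) was smaller than the spread between lines. Without the naïve-like CMK6 library it was -0.05. CTNNB1 differed by a mean of 0.00 (SD 0.64), with 4 lines higher and 3 lower. CMK6 made up much of that spread, with 425.5 RPM primed and 173 RPM naïve-like, a difference of -1.29. Without line CMK6 the mean difference of CTNNB1 was 0.22.

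**Figure D2:**
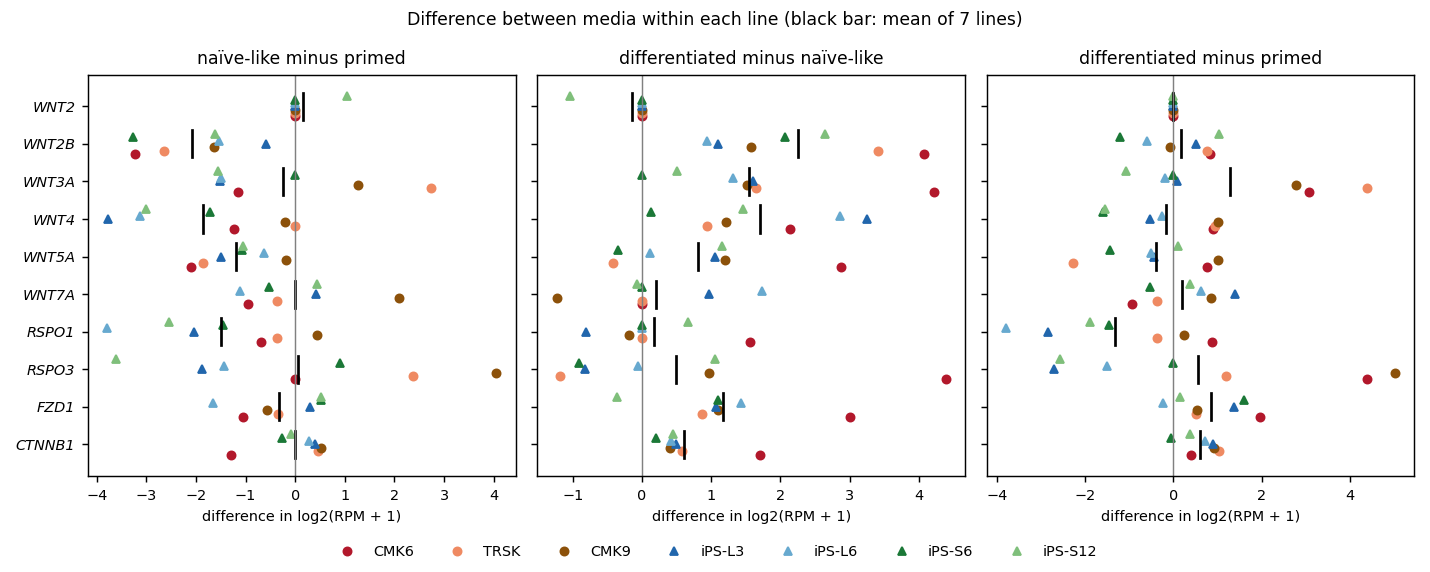
Difference between media within each line, in log2(RPM + 1), for the 10 genes in the 3 comparisons. Circles are ESC lines, triangles are iPSC lines and black bars are means of 7 lines. In differentiated minus naïve-like cells WNT2B, WNT4 and CTNNB1 lie right of 0 in all 7 lines, with CMK6 the highest of the 7 lines for 7 of the 10 genes.

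RSPO3 and WNT3A differed more between lines than between media. RSPO3 stood at 22.1, 19.8 and 12.4 RPM in primed iPS-S12, iPS-L6 and iPS-L3 cells and had 0 reads in the other 4 primed libraries, that of iPS-S6 and those of the 3 ESC lines. In CMK9, the deepest primed library, 3 reads would have been worth 0.376 RPM. In naïve-like cells it was highest in CMK9, at 15.5 RPM, and lowest in CMK6, at 0. It was lower than in primed cells in those 3 iPSC lines and higher in TRSK, CMK9 and iPS-S6, so the mean difference was 0.06 with an SD of 2.63. WNT3A, a ligand of the canonical branch that is active in the primitive streak of the embryo, stood at 0 to 8.13 RPM (median 1.23) in primed cells and at 0 to 5.68 RPM (median 0.534) in naïve-like cells. It had 0 reads in iPS-S6 in all 3 media.

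The 3 genes below the expression level had few reads. RSPO1 reached 4.87 to 12.8 RPM in primed iPS-S12, iPS-L3 and iPS-L6 cells, the same 3 lines that held RSPO3, on 11 to 21 reads each. It was at or below 1.74 RPM in the other 4 primed libraries and below 3 reads in all 7 naïve-like libraries. Its mean difference was -1.49 (SD 1.43), with 6 of 7 lines lower. WNT7A did not exceed 4.32 RPM in any PSC library, and 15 of the 21 libraries lay below 3 reads. WNT2 had reads in 1 of the 23 libraries, 6 reads (1.07 RPM) in naïve-like iPS-S12.

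Differentiated cells were compared with naïve-like cells of the same lines, which shows what came with the removal of LIF and Dox while both GSK-3β inhibitors stayed. WNT2B, WNT4 and CTNNB1 were higher in all 7 lines, and FZD1 and WNT3A in 6 of 7. The mean difference was above 0 for the 7 expressed members. They were named with such results known, and WNT3A passed the expression level only in differentiated CMK6 and TRSK, at 4.22 and 4.38. Nothing is therefore read from the shared direction of the 7 members. Without line CMK6 the mean difference of RSPO3 was -0.16. Over all 2776 genes, 14.1% were called, 6.41% as higher, and 9.11% were higher in all 7 lines. Of the members 2, WNT2B and FZD1, were called higher. With the line as a block the count was 4, with WNT4 and CTNNB1 added, and CTNNB1 was also called with library centring. As for the conversion, nothing is read from these counts. The difference was largest in CMK6 for 6 of the 7 genes, and its naïve-like library was the lowest of its medium for 4 of the 7.

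WNT2B stood at 3.18 to 21.7 RPM (median 11.98), with a mean difference from naïve-like cells of 2.26 (SD 1.18) on the log2 scale. Without line CMK6 that mean difference was 1.96. Only iPS-S6, at 3.18 RPM on 3 reads, lay among the naïve-like values. WNT4 stood at 0.911 to 17.3 RPM (median 7.60), a mean difference of 1.71 (SD 1.10), and its highest libraries were CMK9 and iPS-L6. The difference was smallest in iPS-S6, at 0.14, where both libraries had 3 reads or fewer.

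FZD1 stood at 25.6 to 49.1 RPM (median 31.9) in differentiated cells. It had the narrowest spread over lines of any medium here, an SD of 0.34 on the log2 scale against 0.69 in primed and 0.93 in naïve-like cells. The mean difference from naïve-like cells was 1.17 (SD 0.99), from 3.003 in CMK6 to -0.37 in iPS-S12, and it was 0.86 without CMK6. The call of FZD1 was absent without line iPS-S6, iPS-L6, iPS-L3, TRSK or CMK6, without the naïve-like CMK6 library, and without the filter. CTNNB1 was higher by a mean of 0.61 (SD 0.50), with CMK6 again the highest at 1.70 and the other 6 lines between 0.20 and 0.57. Without CMK6 the mean was 0.42.

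WNT3A stood at 17.6, 19.9 and 9.28 RPM in differentiated CMK6, TRSK and CMK9 cells, and at 6.99 RPM in iPS-L6, 3.19 RPM in iPS-L3, 1.17 RPM in iPS-S12 and 0 in iPS-S6. The 3 ESC lines all lay above the 4 iPSC lines, but how many of all expressed genes did so was not counted. The mean difference of WNT3A from naïve-like cells was 1.54, and 1.10 without line CMK6. The 3 ESC libraries rested on 44 to 109 reads. They were also the highest in COL1A2 among differentiated libraries, at 119 to 257 RPM against 8.50 to 101 RPM in iPSC lines. PDGFRA did not part them in this way. It was at 1.63, 4.19 and 0.633 RPM in CMK6, TRSK and CMK9, at 2.66 RPM in iPS-L6 and at 0 in iPS-L3, iPS-S6 and iPS-S12. The part of fibroblast-like cells in WNT3A was not tested. RSPO3 reached 19.9 RPM in CMK6 and 31.4 RPM in CMK9, the highest value of the gene in any library, while 4 of 7 lines had less than in naïve-like cells. WNT5A was higher in 5 of 7 lines, with a range of 8.56 to 74.4 RPM (median 25.5) and a mean difference of 0.80 that was smaller than its SD of 1.15. It was 0.46 without line CMK6 and 0.50 without the naïve-like CMK6 library.

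Differentiated and primed cells differed most steadily over the lines in CTNNB1 and FZD1, both higher in differentiated cells of 6 of 7 lines. Over all expressed genes 13.4% were called and 7.64% were higher in all 7 lines. No member was called by limma, although 2 of the 7 had an unadjusted p under 0.05, and with the line as a block FZD1 and CTNNB1 were called higher. CTNNB1 was also called with 2 media in the fit, without the primed iPS-S12 library and without the naïve-like CMK6 library. Here too, nothing is read from the calls of members. CTNNB1 was higher by a mean of 0.61 (SD 0.39) and FZD1 by 0.84 (SD 0.81). WNT3A differed by a mean of 1.29 with an SD of 2.07, and its difference was 2.78 to 4.38 in ESC lines and -1.07 to 0.09 in iPSC lines. WNT2B was close to its primed level, at a mean difference of 0.18 (SD 0.84). WNT5A differed by -0.40 (SD 1.17). WNT4 was higher in all 3 ESC lines, by 0.90 to 1.00, and lower in all 4 iPSC lines, by 0.27 to 1.59. How many of all expressed genes split by origin like WNT3A or WNT4 was not counted, so nothing is read from these splits. The 3 comparisons share libraries, so their differences are given side by side and are not independent of each other.

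**Figure D3:**
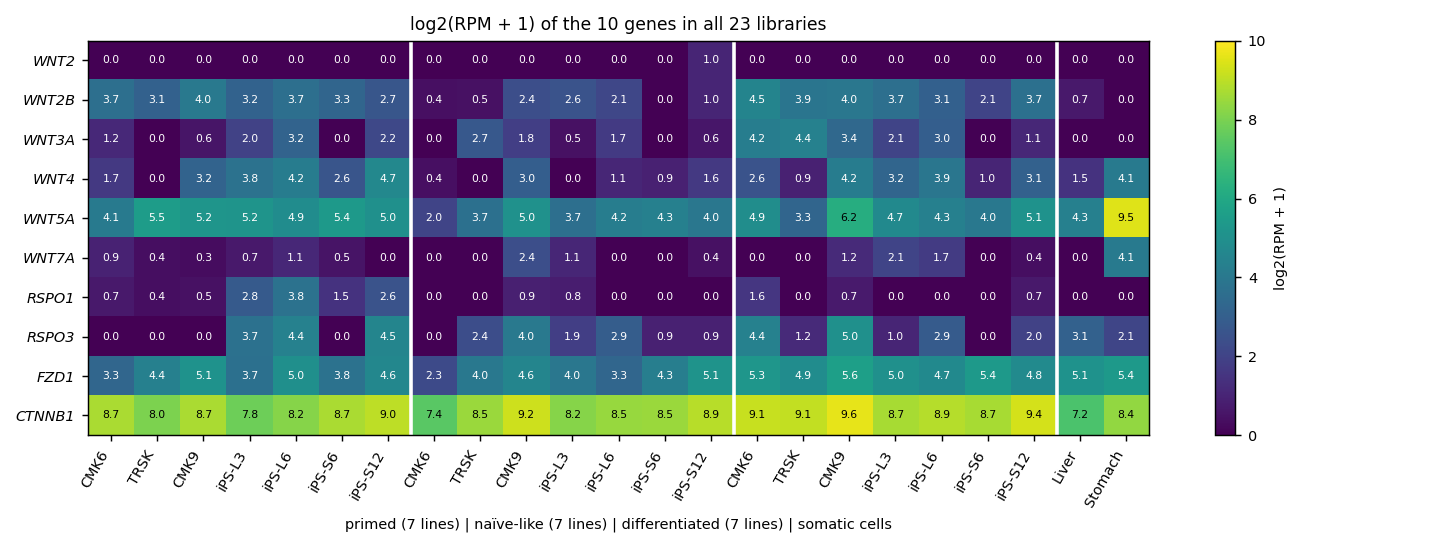
The 10 genes in all 23 libraries, as log2(RPM + 1) printed in each cell and shown by colour. Vertical lines part primed, naïve-like, differentiated and somatic libraries. WNT5A is the highest of the 10 in the stomach library, at 9.5, and among primed libraries RSPO3 is above 0 in 3 iPSC lines only.

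The origin of the lines was no part of the rule, so ESC and iPSC lines were tested, with 1 value per line and 3 against 4 lines. CMK6 and TRSK are male and CMK9 is female, and the 4 iPSC lines come from 1 female foetus. The study lists a DsRed vector for converting ESC lines and leaves it out for iPSC lines. Origin therefore cannot be told apart from donor, and sex and that vector were not balanced. Averaged over media, none of the 7 expressed members differed by limma, and none had an unadjusted p under 0.05, where 1.62% of all expressed genes were called. The largest difference was that of WNT4, 0.75 higher in iPSC lines (SE 0.68, limma adjusted p = 0.651). The response to conversion was then compared between origins. By limma 0 of 2776 genes (0%) passed, with 160 at an unadjusted p under 0.05, WNT4 and RSPO3 among them. WNT4 had a mean difference of -0.48 in ESC lines and of -2.91 in iPSC lines, a contrast of -2.43 (SE 0.73, limma adjusted p = 0.702). RSPO3 had 2.14 in ESC lines and -1.51 in iPSC lines, a contrast of -3.64 (SE 1.19, limma adjusted p = 0.702). In data simulated for this comparison of conversion responses, a log2 difference of 1 was found for 1 of 200 genes and one of 2 for 123 of 200. Simulated libraries of a line were drawn independently, whereas deviations of the real ones correlated at 0.269 on average. These counts can therefore understate what could be detected. A missing call is not read as an equal response.

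The response to removal of LIF and Dox gave 0 calls by limma as well, with 215 genes at an unadjusted p under 0.05 and no member among them. WNT3A differed by 2.46 in ESC lines and by 0.85 in iPSC lines, and this contrast of -1.61 (SE 0.86) did not pass (limma adjusted p = 0.729). With 1 line left out it was -2.08 to -0.73. CTNNB1 differed by 0.89 in ESC lines and by 0.39 in iPSC lines, a contrast of -0.50 (SE 0.25, limma adjusted p = 0.700). Among ESC lines CTNNB1 rose by 1.70 in CMK6, 0.57 in TRSK and 0.41 in CMK9, and in iPSC lines by 0.20 to 0.49. With 1 line left out the contrast of CTNNB1 was -0.75 to -0.10.

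Liver and stomach cells were each measured once, so their levels carry counting intervals only and no test. Both libraries were rich in COL1A2, a fibrillar collagen chain of mesenchymal cells, at 4832 RPM in liver and 4506 RPM in stomach. The 5 measured hepatocyte markers (ALB, AFP, APOA2, AHSG and TF) were all at 0 in the liver library. The stomach library held TFF1, TFF2 and CLDN18 at 89.5, 166 and 188 RPM, while PGC and CHIA were at 0. Fewer cells of a type and less RNA per cell cannot be told apart in such bulk libraries.

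WNT5A was the member that set the somatic libraries apart from each other. It had 734 RPM in stomach cells (2264 reads, 95% exact Poisson interval 704 to 765) and 19.4 RPM in liver cells (33 reads, 13.3 to 27.2), a ratio of 37.9 (26.9 to 55.2). The stomach value was above every PSC library, whose highest was 74.4 RPM, and the liver value lay within the PSC range. Of 2179 genes compared between the somatic libraries, 4.5% had a log2 difference above 3 in favour of stomach. WNT5A differed by 5.17, and 33 genes, WNT5A itself included, differed by at least that much. WNT4 and WNT7A each had 50 reads (16.2 RPM) in stomach cells, against 3 reads and 0 reads in liver cells. For WNT4 the ratio was 9.21 (2.97 to 46.2).

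CTNNB1 was at 328 RPM in stomach and 143 RPM in liver cells, a ratio of 2.30 (2.00 to 2.66). The liver value was below all 21 PSC libraries. FZD1 was at 39.9 and 32.9 RPM, a ratio of 1.21 whose interval (0.878 to 1.70) includes 1. RSPO3 had 10 reads in stomach and 13 in liver cells. WNT3A, RSPO1 and WNT2 had 0 reads in both, with upper limits of the 95% exact Poisson interval of 1.20 RPM in stomach and 2.17 RPM in liver cells. WNT2B had 1 read in liver and 0 in stomach cells.

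Around these 10 genes, 140 other genes of the pathway were listed by role, of which 35 were measured and 23 were expressed. Listed genes outside the 35 have no value among the 8415 genes analysed, so nothing is known here of their expression. Naïve-like and primed cells differed in 3 of the 23 (13.0%, beside 19.2% of all expressed genes), differentiated and naïve-like cells in 5 (21.7%, beside 14.1%), and differentiated and primed cells in 2 (8.70%, beside 13.4%). The medians of the list were -0.34, 0.19 and -0.09, beside 0.06, -0.02 and 0.05 over all expressed genes. Those 23 genes include no other Wnt ligand: WNT9A and WNT16 were measured and stayed at or under 1.51 RPM in PSCs. All adjusted p-values of these genes are from limma with Benjamini-Hochberg adjustment over all 2776 genes. The lists were chosen with earlier results of these data known. Their counts and calls, here and below, are therefore a description and no independent support for a change.

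WLS, the carrier that brings Wnt ligands to the cell surface, stood at 49.8 to 337 RPM in primed, 63.4 to 209 RPM in naïve-like and 237 to 536 RPM in differentiated cells. The differentiated and naïve-like ranges did not overlap, as in 1.44% of all expressed genes. WLS rose by 1.55 (SE 0.30, limma adjusted p = 0.00107) from naïve-like cells and by 1.16 (SE 0.30, limma adjusted p = 0.0105) from primed cells, and was higher in 7 of 7 lines in both. The rise from naïve-like cells was 2.10 in ESC lines and 1.14 in iPSC lines, a difference of -0.96 (SE 0.25) that did not pass (limma adjusted p = 0.388).

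Among the receptors, ROR1, a tyrosine kinase receptor for WNT5A, stood at 20.3 to 96.3 RPM in primed, 18.0 to 59.3 RPM in naïve-like and 6.37 to 29.7 RPM in differentiated cells. It fell by 1.99 against primed cells (SE 0.35, limma adjusted p = 0.000432), in 7 of 7 lines. Against naïve-like cells the log2 change was -1.67 (SE 0.35, limma adjusted p = 0.00211), in 6 of 7 lines. PTK7, a catalytically inactive receptor-like kinase of the planar polarity branch, rose by 0.95 from naïve-like to differentiated cells (SE 0.28, limma adjusted p = 0.0237), in 7 of 7 lines. That call of PTK7 was lost without line iPS-S12, CMK6, TRSK or iPS-S6, with adjusted p of 0.0510 to 0.0716. PTK7 passed the expression level only in differentiated TRSK and iPS-S12, at 4.16 and 4.52, so its call is no support for a change. RYK, the other expressed receptor of the list, was called only with the line as a block, lower by 0.45 in naïve-like than in primed cells (limma adjusted p = 0.0253).

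CELSR2 and VANGL2 are membrane proteins of the planar polarity branch. CELSR2 was lower in naïve-like than in primed cells in 6 of 7 lines, with a log2 change of -1.14 (SE 0.41, limma adjusted p = 0.0495), a call that was kept in 4 of 16 alternatives. It rose by 1.63 from naïve-like to differentiated cells (SE 0.41, limma adjusted p = 0.00865) in 7 of 7 lines, without overlap. CELSR2 passed the expression level in primed iPS-L6 and in differentiated TRSK, iPS-L6 and iPS-S6, and in no naïve-like library. Its calls against naïve-like cells are therefore no support for a change. VANGL2 rose by 0.82 from naïve-like to differentiated cells (SE 0.22, limma adjusted p = 0.0134) in 6 of 7 lines. Its call was lost without line CMK6 (limma adjusted p = 0.0621) or iPS-L6 (0.0531).

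In the nucleus, BCL9, which links beta-catenin to the transcription machinery, was lower in naïve-like than in primed cells in 7 of 7 lines, with a log2 change of -0.71 (SE 0.20, limma adjusted p = 0.0135). This call was lost without line iPS-L3 (limma adjusted p = 0.0541). With the line as a block it was also called higher in differentiated than in naïve-like cells, by 0.54 (limma adjusted p = 0.0481). SP8, a transcription factor listed among Wnt targets, was higher in naïve-like than in primed cells in 7 of 7 lines, by 2.18 (SE 0.68, limma adjusted p = 0.0281). It ran from 1.33 to 18.6 RPM in primed and from 6.91 to 47.7 RPM in naïve-like cells. That call was lost without line iPS-L3, TRSK, iPS-S6 or iPS-S12, without the primed iPS-S12 library, with a pseudocount of 0.1 and without the filter, at adjusted p from 0.0558 to 0.0895. MSX1, the other expressed target, was not called in any of the 3 comparisons, with or without the block.

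None of the 5 expressed cytoplasmic genes, GSK3B, DVL1, DVL3, KLHL12 and SENP2, was called by limma in the 3 comparisons of media, where 1 of them, GSK3B, had an unadjusted p under 0.05, in naïve-like against primed cells. GSK3B, the kinase that CHIR99021 inhibits, differed there by -0.65 (limma adjusted p = 0.0733), in 6 of 7 lines, and passed without line CMK9 (limma adjusted p = 0.0115). The secreted inhibitors SFRP4 and DRAXIN were called only with the line as a block, in naïve-like against primed cells, SFRP4 higher by 1.84 (limma adjusted p = 0.0401) and DRAXIN lower by 1.00 (limma adjusted p = 0.0125).

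**Figure D4:**
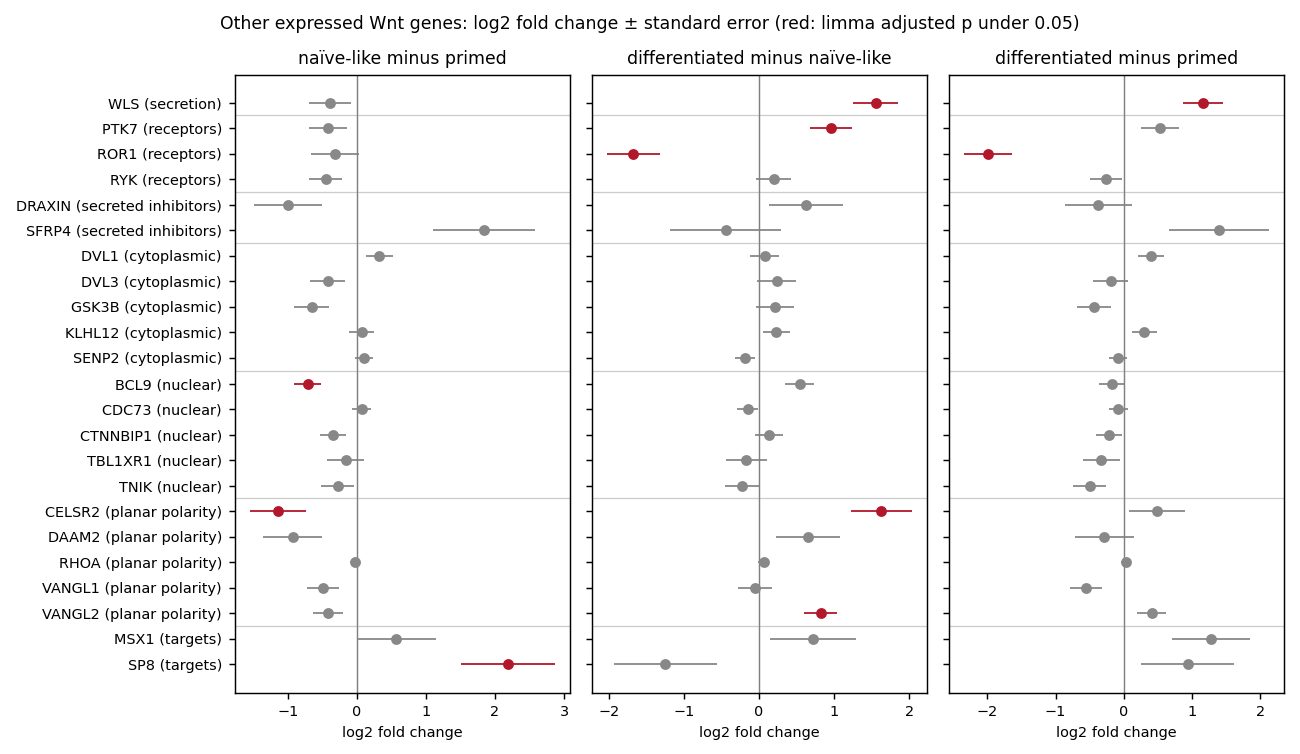
Log2 fold change with its standard error for the 23 other expressed Wnt genes, grouped by role, in the 3 comparisons over 7 lines. Red points had a limma adjusted p under 0.05 (3, 5 and 2 genes from left to right). WLS lies to the right and ROR1 to the left in both comparisons of differentiated cells.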

How the data were processed

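From 1 ng of total RNA for each library, the authors made cDNA, read its 3′ ends and deposited a table of RPM (reads scaled by the mapped total of the library), 1 column per library and unpooled. The submitters' processing notes name cutadapt 1.3, TopHat 1.4.1 and Cufflinks 2.2.0. Replicates are cell lines.

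The last of 8416 rows was cut off and left out. The rows used held 24.8% to 27.5% of the RPM of each library, so most of each library lay outside them. By gene ID, 5564 of 8415 genes matched RefSeq (assembly T2T-MFA8v1.1, used for names only) and 980 took their symbol from it. The value of 1 read was inferred from the steps of low values and gave depth. Since 86.7% to 92.9% of values above 0 were whole multiples of it (tolerance 0.02 read), no count test was used.

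Values were log2(RPM + 1). Fold changes on this scale understate those of low genes. Genes above 4 in at least 1 PSC library (2776, 33.0%) were fitted with limma 3.58.1 in R 4.3.3 with a mean-variance trend, all 3 media fitted jointly and a threshold of 0.05 on Benjamini-Hochberg adjusted p. Origin was tested on 1 value per line. The line pairs the libraries of a line, by the labels. Deviations from the group mean correlated at 0.269 on average between media of the same line (21 pairs, 0.0304 to 0.561) and at -0.0446 between different lines. The line as a block was an alternative, beside another pseudocount (0.1), other filters, quantile normalization, library centring, no trend, 2 media in the fit and each line left out. Leaving out single libraries was added after seeing the data. The Wnt lists, the members and the markers were chosen with earlier results of these data known. Named genes are all 10 members and every listed Wnt gene past the threshold. Genes given by a call under the block, GSK3B, MSX1, WNT9A and WNT16 were named after their values were seen.

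On simulated data, limma recovered 145 of 200 genes changed by a log2 of 1 between naïve-like and primed cells and 186 of 200 changed by 2, over 2776 genes. Intervals and the 3-read floor cover counting error only. Nothing says that a library is 1 of several cultures of a line, and the 4 iPSC lines share a donor, so p-values measure the spread between these lines. Scripts ran in Python 3.11.15 with numpy 2.4.6, pandas 2.3.3, scipy 1.17.1 and matplotlib 3.10.9.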

Additional observations from a re-analysis of the deposited data

Results flagged for a closer look

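For 17 genes, the members and the called Wnt genes, 49 groups of 7 lines with a range above 0 were screened for a library far from the others. Of these, 2 were past Dixon's critical value, and chance gives about 2.45. WNT2 in naïve-like iPS-S12 was the highest of its group, with 1.07 RPM against 0 in the other 6 lines, so its gap made up the whole range (ratio 1). ROR1 in naïve-like CMK6 was the lowest, at 18.0 RPM against 43.2 RPM in the next line, a ratio of 0.731.

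WNT4 moved in opposite directions in ESC and iPSC lines from primed to differentiated cells. All 3 ESC lines were higher, by a mean of 0.95 on the log2 scale, and all 4 iPSC lines were lower, with a mean of -0.99. The difference of -1.93 was not tested. How many of all expressed genes split by origin in this way was not counted, so nothing is read from the split. In differentiated iPS-S6 cells WNT4 rested on 1 read.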

How the results depend on the processing

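Mean differences of members that changed sign in an alternative were smaller than their SD over lines. Leaving out 1 line cannot move a mean by as much as that SD, so no count of alternatives within it is given. With a pseudocount of 0.1 the difference from primed to naïve-like cells was -3.10 for WNT2B and -3.36 for RSPO1, and that from naïve-like to differentiated cells was 2.88 for WNT4. Of the listed Wnt genes, naïve-like against primed cells gave 3 calls, 1 with a pseudocount of 0.1, 1 without the filter, 6 with the line as a block, and 0 to 4 with 1 line or library left out (0 without iPS-L3, 1 without TRSK, iPS-S12 or the primed iPS-S12 library). Differentiated against naïve-like cells gave 5 calls, 3 with the filter in at least 7 libraries, and 3 to 5 with 1 line or library left out (3 without CMK6). CELSR2 and PTK7 were not tested with that stricter filter. Over all genes, leaving out 1 line or library gave 302 to 527 calls for naïve-like against primed cells (302 without iPS-L3), 219 to 420 for differentiated against naïve-like cells (219 without CMK6) and 241 to 403 for differentiated against primed cells (241 without iPS-S6). The line as a block gave 585 calls in the last comparison. It changed no other call of a member or listed Wnt gene than those given above. Library centring turned the split of calls for naïve-like against primed cells from 307 higher and 227 lower into 218 and 261. Between iPSC and ESC lines 45 genes were called, 24 without the trend and 9 to 160 with 1 line left out (160 without iPS-S12). The responses gave 0 calls, 3 for conversion and 2 for removal without the filter, and 0 to 1 and 0 to 2 with 1 line left out (1 without TRSK, 2 without CMK9). The cause of these moves was not tested. Depth limits WNT2, WNT7A, RSPO1 and the naïve-like values of WNT2B, WNT3A and WNT4, many of which rest on fewer than 3 reads.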

Other observations

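Naïve-like CMK6 was the lowest library of its medium for 11 of the 30 expressed Wnt genes (36.7%), members and listed genes together, and for 24.2% of all expressed genes. The other 20 PSC libraries were lowest for 1 to 8 of the 30 Wnt genes. Among the members it was lowest for WNT5A, FZD1, CTNNB1 and RSPO3. The part of this library in the differences of these genes was not tested beyond the values without it given above.

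The expressed genes whose levels followed each member most closely over the 21 PSC libraries are given by Pearson's r of log2(RPM + 1). The 21 points share lines and media, so r is a description. Those of WNT2B were ACAT2 (r = 0.80), a cholesterol pathway thiolase, PHC2 (r = 0.78) and WASF1 (r = 0.76). Those of WNT3A were SGCE (r = 0.77), EPHA7 (r = 0.77) and ZIC1 (r = 0.74). Those of WNT4 were ENAH (r = 0.84), an actin regulator, CNTNAP2 (r = 0.78) and CSF1 (r = 0.74). WNT5A was closest to LOC102133263 (r = 0.80), PFKL (r = 0.77) and VGF (r = 0.76). RSPO3 was closest to SST (r = 0.77), the somatostatin gene, to WNT3A (r = 0.70) and to GNPDA2 (r = 0.63). FZD1 was closest to GPR161 (r = 0.79), CD47 (r = 0.73) and LYPLA2 (r = 0.72), and CTNNB1 to CXCL6 (r = 0.81), PEG10 (r = 0.80) and PTP4A1 (r = 0.77). Among the members themselves, the closest pairs were WNT3A with RSPO3 (r = 0.70) and FZD1 with CTNNB1 (r = 0.68).

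LGR6, a receptor for R-spondins, was at 28.8 RPM in liver cells and 4.22 RPM in stomach cells, and did not exceed 0.501 RPM in any PSC library.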
